A study of Drosophila melanogaster with 4 samples.

Results

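HP1a clusters on the distal right arm of chromosome 3 (3R) of Drosophila melanogaster were thinly spread, mostly short and mostly of low score, with a small set of longer or higher-scored islands that both replicates covered. The members described here are the enriched regions, called clusters, of the authors' combined set that lie on 3R with a midpoint above position 2000000, more than 2 Mb from the proximal (centromere-side) end of the FlyBase r5 arm sequence. They number 608 of the 695 combined-set clusters on 3R and of 5583 in the whole combined set. Each member was taken by position alone, but the arm was picked with its coverage known to be the lowest, so its low coverage is a description and not a separate finding.

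The samples were chromatin immunoprecipitations of HP1a with the antibody wa191 from head nuclei of wild-type Oregon-R flies, with the stage given as mixed adult. The flies were kept in population cages with a 22-day adult cycle, and heads were collected with sieves, so each library pools many animals and every cell type of the head. The 2 ChIP libraries each had an input library (2 in all), and the authors' enriched regions were available for each ChIP replicate and for the replicates combined. A list of regions holds no marker of tissue, so the head label could not be checked.

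HP1a is a core protein of heterochromatin. Its chromodomain binds methylated histone H3 tails, and its chromoshadow domain lets molecules pair and bind partners, which packs chromatin around transposons and other repeats near centromeres. Outside the pericentric regions HP1a is also known at telomeres, where it protects chromosome ends, and at separate sites on the euchromatic arms, including transposon insertions and some transcribed genes. Distal 3R is such a euchromatic arm.

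The whole lists held 3564 clusters in replicate 1 and 4467 in replicate 2. Each cluster carries the authors' own score. No source used here gives its scale, so scores serve only to describe and rank clusters within a list. The shortest cluster was 1301 bp in each replicate list and 1001 bp in the combined set. Read depth is unknown, so bases outside every cluster are not shown to lack HP1a.

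Distal 3R spanned 25.9 Mb. Clusters of replicate 1 covered 2.45% of it and clusters of replicate 2 covered 3.07%, a mean of 2.76% ± 0.434 (SD, n = 2). Distal 2L, 3L and X, measured the same way beyond 2 Mb from their proximal ends, were each covered more in both replicates. On distal 2L the share was 3.62% in replicate 1 and 3.80% in replicate 2. On distal 3L it was 3.18% and 3.76%, and on distal X 7.23% and 10.5%, in replicates 1 and 2. The 3R value of each replicate lay below the values of the same replicate on the other 3 arms. The highest 3R value (3.07%) came close to the lowest of 3L (3.18%).

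The mean difference of 3R from 2L was -0.95 percentage points, from 3L -0.71 and from X -6.13. No value of 3R overlapped those of another arm, yet an exact two-sided permutation test over 2 lists against 2 cannot give a p below 0.333, and all 3 comparisons gave that value (adjusted p = 0.333 each, Benjamini-Hochberg over 3). The arms were read from the same 2 libraries and can also be paired by library. So paired, 3R minus 2L was -1.16 points in replicate 1 and -0.74 in replicate 2. Against 3L it was -0.73 and -0.69, and against X -4.78 and -7.47, in replicates 1 and 2. An exact sign-flip permutation test of 2 pairs cannot give a p below 0.50, the value of all 3 (adjusted p = 0.50 each), so the differences are values in 2 libraries and not passed tests. The arm was picked with this coverage known to be the lowest. The direction of the differences was therefore set beforehand, and neither test adds support to it.

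**Figure D1:**
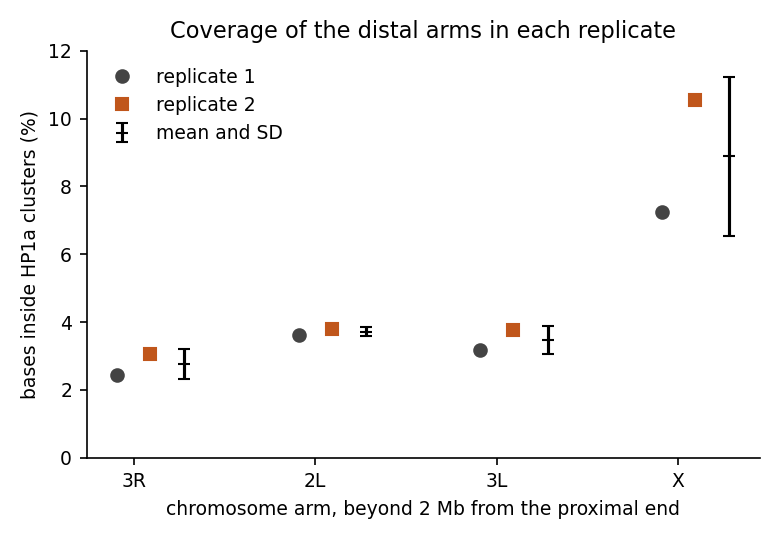
Percent of bases inside HP1a clusters (vertical axis) on each arm beyond 2 Mb from the proximal end (horizontal axis), with replicate 1 as circles, replicate 2 as squares and the mean with SD (n = 2) beside them. The 3R points, at 2.45% and 3.07%, sit lowest in each replicate, and the X points, at 7.23% and 10.5%, sit highest.

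Members had a median length of 1883 bp, against 1929 bp for the 2255 combined-set clusters beyond 2 Mb on 2L, 3L and X together. The single arms had medians of 1902 bp on 2L, 1805 bp on 3L and 2007 bp on X, so 3L lay below 3R. Among clusters with bases inside clusters of both replicates, the median was lowest on 3R, at 2921 bp. It was 3643 bp on the other arms together (3151 bp on 2L, 3515 bp on 3L and 3843 bp on X). On 3R 3 of 608 members (0.493%) were 10 kb or longer, against 49 of 2255 (2.17%) on the other arms. The count was 8 among the 516 clusters of 2L, 10 among 619 on 3L and 31 among 1120 on X. Members were placed at 23.5 per Mb on 3R, against 24.6 on 2L, 27.5 on 3L and 54.8 on X. Clusters of 1 arm come from the same 2 libraries and are not replicates, so these counts carry no test. Coverage is made up of the number and length of clusters, so low values here are not separate from the coverage that picked the arm.

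In the same list, the median score of members was 0.47 on 3R, against 0.54 on the other 3 arms together. By arm it was 0.49 on 2L, 0.47 on 3L and 0.60 on X, so 3R and 3L had the same median to 2 decimals.

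The support of each member in the separate replicates was then counted. A member was met by a replicate if at least 1 bp of it lay inside a cluster of that replicate. Both replicates met 200 of the 608 members (32.9%), against a background of 45.8% of all combined-set clusters and 33.1% of those beyond 2 Mb on 2L, 3L and X. At least 50% of the bases lay inside clusters of both replicates for 177 members (29.1%), against 40.0% of all combined-set clusters and 27.5% on the other 3 distal arms. Neither replicate met 240 members (39.5%), against 29.6% of all combined-set clusters and 36.7% on the other 3 distal arms. The shares on 3R are thus near those of the other distal arms. The combined set was made from the same libraries, so support in the replicates is not independent of membership.

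Of the other members, 46 were met by replicate 1 only and 122 by replicate 2 only. Replicate 2 also had more clusters on the arm, 342 against 263 in replicate 1. The 200 members met by both held 703 kb, or 50.8% of the 1384 kb in members, and the 240 met by neither held 332 kb, or 24.0%.

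Support went with length. Members met by both were 1495 to 14427 bp long with a median of 2921 bp, those met by replicate 1 only had a median of 1992 bp, those met by replicate 2 only 1861 bp, and those met by neither 1292 bp. Of the 139 members shorter than 1300 bp, 0 were met by both and 125 by neither. The replicate lists hold no cluster that short, so part of this count follows from the length limits of the lists. Of 154 members from 2000 bp up to 3000 bp, 84 were met by both and 16 by neither. Of 33 members of 5000 bp or more, 32 were met by both and 0 by neither.

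**Figure D2:**
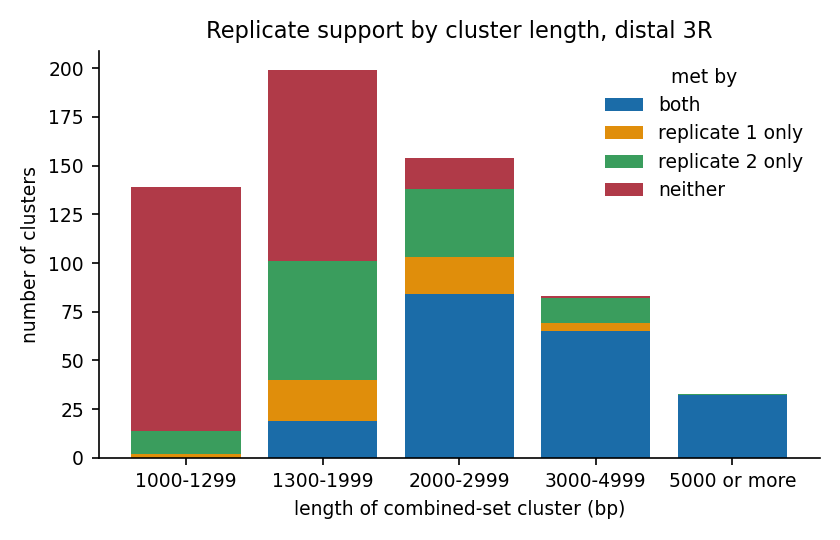
Number of distal 3R members (vertical axis) by length class in bp (horizontal axis), stacked by which replicates met them at 1 bp or more. Nearly all of the 139 shortest members were met by neither replicate, and 32 of the 33 longest were met by both.

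Support did not follow the score in the same way. Among 42 members with a score of at least 0.7 and below 1, both replicates met 38 and neither met 2. Among the 27 scored from 1 to below 2, both met 19 and neither met 8. At a score of 2 or more the order turned round, with 4 of 15 members met by both and 11 met by neither. Members scored at 1 or above and met by 1 replicate alone numbered 0.

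The 42 members scored at 1 or above were therefore met by both replicates or by neither, and these 2 sets did not overlap in length. Over all 608 members, those met by neither were shorter too (median 1292 bp, against 2921 bp for those met by both). Part of the length split thus goes with support at any score. The 23 met by both replicates were 2245 to 8283 bp long, each at least 50% covered in both. Of these, 0 shared a score with another combined-set cluster. They made up 11.5% of the members met by both on 3R. The same share was 16.8% on distal 2L, 10.8% on distal 3L and 24.5% on distal X, so 3R was near 3L. The 19 met by neither were 1001 to 2137 bp long, and 17 of them had a score that recurred, to 6 decimals, in other clusters of the combined set. Such a recurring score was held by 158 of all 608 members and by 103 of the 240 met by neither. The 19 lay 1618 to 234886 bp from the nearest replicate cluster.

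**Figure D3:**
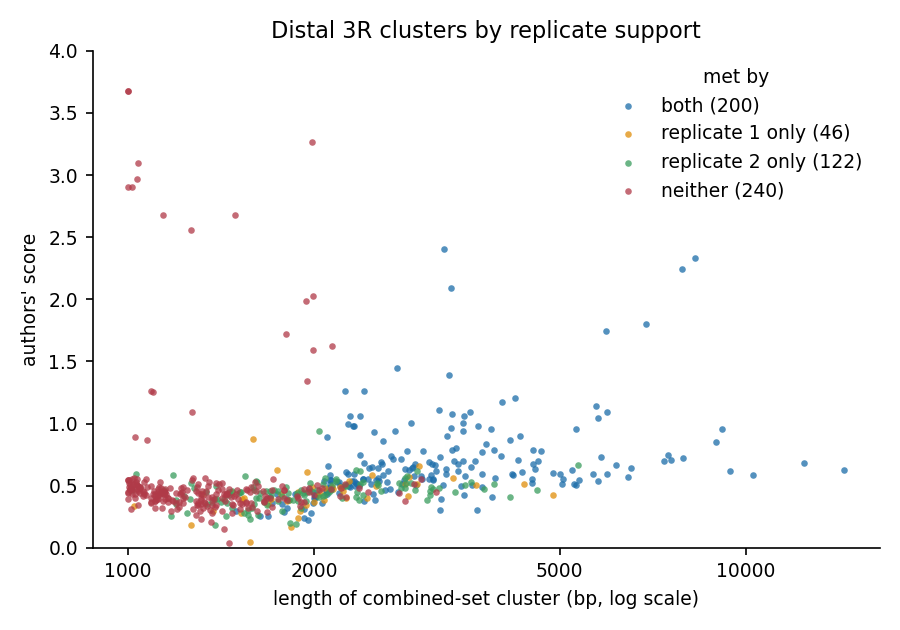
Authors' score (vertical axis) against length in bp on a log scale (horizontal axis) for the 608 distal 3R members, coloured by the replicates that met them. The highest scores, up to 3.68, belong to members of about 1 to 2 kb met by neither replicate, while those of the members met by both reach 2.41 at lengths of 2245 bp and more.

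The highest-scored islands covered well in both replicates are given first. The highest-scored member covered to at least 50% in both replicates ran from 2905518 to 2908764 (3247 bp) with a combined score of 2.41. Replicate 1 covered 98.6% of it with a score of 2.44 and replicate 2 covered 90.1% with a score of 2.41. Its score ranked first among the members met by both in each replicate.

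The second, from 3521354 to 3529636 (8283 bp, score 2.33), was covered to 94.3% with a score of 2.42 in replicate 1 and to 97.0% with a score of 2.23 in replicate 2. Both replicates had their longest distal 3R cluster here, of 7809 bp from 3521624 to 3529432 in replicate 1 and of 8032 bp from 3521561 to 3529592 in replicate 2. The edges of these clusters thus lay within 200 bp of each other on both sides.

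The third island, from 26899702 to 26907584 (7883 bp, score 2.25), lay near the other end of the arm. It was covered to 98.2% with a score of 2.20 in replicate 1 and to 99.1% with a score of 2.29 in replicate 2. The fourth, from 8536492 to 8539818 (3327 bp, score 2.09), was covered to 89.7% with a score of 2.21 and to 96.8% with a score of 2.11 in replicates 1 and 2. The fifth, from 11028872 to 11035776 (6905 bp, score 1.80), was covered to 95.3% with a score of 1.84 and to 100% with a score of 1.82 in replicates 1 and 2. These 5 held ranks 1 to 5 in replicate 1 and ranks 1, 2, 3, 4 and 6 in replicate 2 among the 200 members met by both.

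Across the 200 members met by both, the mean score of the replicate clusters inside a member had a median of 0.71 in replicate 1 and 0.72 in replicate 2. The scores went together across these members, with a Spearman's rho of 0.75 and a Pearson's r of 0.89. Both are given as a description across regions of the same libraries, and the regions share the arm and the combined set. Of the 20 highest-scored in each replicate, 15 were the same members. Longer members tended to score higher (rho 0.53 between length and combined score over the same 200).

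**Figure D4:**
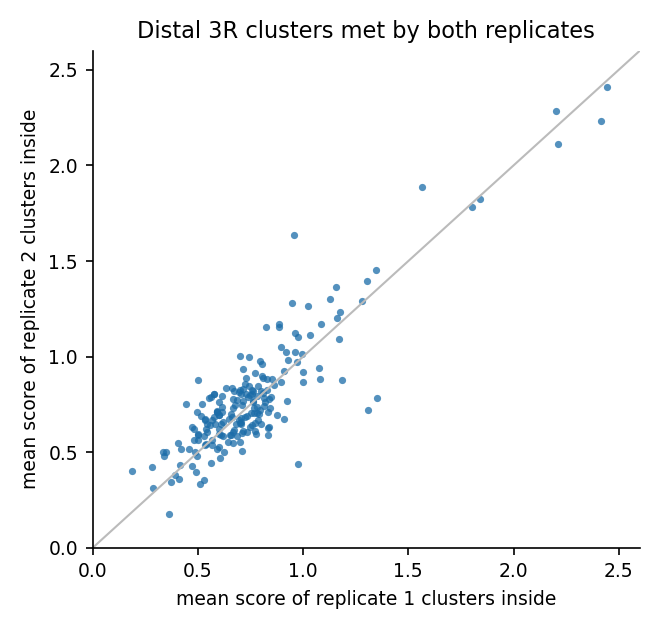
Length-weighted mean score of replicate 2 clusters (vertical axis) against that of replicate 1 clusters (horizontal axis) inside each of the 200 distal 3R members met by both, with the line of equal values. Most points lie between 0.4 and 1 on both axes, and the 4 members with a combined score of 2 or more stand apart at the upper right.

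The 3 members met by both whose replicate scores lay farthest apart had 1 cluster in each replicate. The member from 24947662 to 24949906 (2245 bp) scored 0.96 in replicate 1 and 1.64 in replicate 2. The member from 21877076 to 21879446 (2371 bp) scored 1.35 in replicate 1 and 0.78 in replicate 2, and that from 9484254 to 9487740 (3487 bp) scored 1.31 and 0.72. Each of the 3 was more than 90% covered in both replicates, so their place was shared while their scores were not. These 3 were singled out after the values were seen.

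The longest members mostly scored below 1, yet above the median of 0.47 over all 608 members. The longest of all, from 16851782 to 16866208 (14427 bp, score 0.62), was covered to 43.0% by 3 clusters in replicate 1 and to 80.9% by 5 clusters in replicate 2. The longest covered to at least 50% in both ran from 21452646 to 21465084 (12439 bp, score 0.68), with 68.1% in 3 clusters of replicate 1 and 60.7% in 3 clusters of replicate 2. The remaining member over 10 kb, from 27504944 to 27515228 (10285 bp, score 0.59), had 22.4% of its bases in clusters of replicate 1 and 64.2% in those of replicate 2. The longest and the last of these 3 were singled out after the values were seen. All 3 were only partly covered in at least 1 replicate, and 0 clusters of either replicate on distal 3R reached 10 kb.

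Next in length among members at least 50% covered in both were those from 15712236 to 15721678 (9443 bp, score 0.61) and from 10458402 to 10467554 (9153 bp, score 0.96). Replicate 1 covered 59.7% and 72.9% of these, and replicate 2 covered 84.8% and 76.2%. The member from 26404494 to 26413454 (8961 bp, score 0.85) was covered to 72.5% and 83.4% in replicates 1 and 2. The others among the 10 longest were the islands at 3521354 and 26899702 and 4 members of 7363 to 7917 bp with scores from 0.70 to 0.75. These began at 18528306, 21093570, 21824494 and 25031514. That at 21093570 was covered almost fully, to 99.7% in replicate 1 and 95.4% in replicate 2.

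The 5 highest-scored members of all had no cluster in either replicate. The first 2, of 1001 bp each, began at 20756588 and 21153648 and both scored 3.68, a value carried by 14 clusters of the combined set. The one at 8320230 was 1981 bp long and scored 3.26, a value carried by 5 combined-set clusters. The one at 10010210 (1039 bp) scored 3.09, a value carried by 11. The one at 16071102 (1035 bp) scored 2.97, a value carried by 2. The nearest replicate clusters lay 3223, 13349, 6980, 25463 and 59053 bp away from these 5, in the order given.

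Where both replicates met a member with 1 cluster each (180 of the 200), their edges could be compared. The starts differed by a median of 187 bp and the ends by a median of 204 bp. Of the 360 edges, 185 (51.4%) lay within 200 bp of each other and 32 (8.89%) lay more than 1000 bp apart. The other 20 members were split into several clusters in at least 1 replicate, 13 of them in replicate 1 and 13 in replicate 2, with 6 split in both.

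In bases, the replicates shared 476 kb of the 954 kb that either covered on distal 3R, a Jaccard index of 0.50. The shared bases were 74.9% of those of replicate 1 and 59.9% of those of replicate 2. The index was 0.58 on distal 2L, 0.49 on distal 3L and 0.50 on distal X, so distal 3R stood with 3L and X. Of the clusters of replicate 1, 210 of 263 (79.8%) met a cluster of replicate 2, and 209 of 342 (61.1%) did so in the opposite direction. Clusters that met none had lower medians of length and score. In replicate 1 these were 1776 bp and 0.62, against 2208 bp and 0.71 for those that met one. In replicate 2 they were 1642 bp and 0.60, against 2329 bp and 0.72. Some high-scored clusters were unmatched all the same, 2 of the 26 scored at 1 or above in replicate 1 and 2 of the 33 in replicate 2. The highest of these, in replicate 1 from 4736817 to 4738910 (2094 bp), scored 2.05. It lay inside the member from 4732988 to 4738930 (score 1.74), which both replicates met. Replicate 2 covered 59.0% of that member, with a score of 1.78.

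The longest clusters found in replicate 2 alone were at 25952926 (5192 bp, score 0.90), 15757741 (3218 bp, score 1.00), 25028315 (3054 bp), 14982579 (3053 bp) and 26011050 (3022 bp). The longest found in replicate 1 alone were at 20929775 (3518 bp), 9043294 (3280 bp), 14471049 (2980 bp), 21040691 (2806 bp) and 24701259 (2605 bp), all with scores from 0.61 to 0.78. Each of these 10 lay at least 87.9% inside the combined set. The one at 24701259 lay inside a member that both replicates met, from 24698412 to 24704076. Only 2 clusters of replicate 1 and 4 of replicate 2 on distal 3R lay outside it, and these were 1318 to 1790 bp long.

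Along the arm, members occurred in every 1 Mb window but unevenly, from 10 to 44 a window over 26 windows (the last, at the tip, holds 0.905 Mb). Coverage per window was 1.13% to 4.73% in replicate 1 with a median of 2.20%, and 1.33% to 7.21% in replicate 2 with a median of 2.70%. Replicate 2 was higher in 23 of the 26 windows. The windows had a similar order in the replicates (Spearman's rho 0.88, Pearson's r 0.89, a description across windows of 2 libraries).

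By the mean of the replicates, the most covered window was 25 to 26 Mb, at 4.73% in replicate 1 and 7.21% in replicate 2, with 44 members of which both replicates met 17. It was followed by 21 to 22 Mb, at 4.32% and 5.13% with 42 members, and by 5 to 6 Mb, at 4.17% and 4.85% with 34 members. The least covered were 23 to 24 Mb, at 1.19% and 1.33%, then 17 to 18 Mb, at 1.48% and 1.58%, and 13 to 14 Mb, at 1.34% and 1.77%, in replicates 1 and 2. Coverage of the window from 25 to 26 Mb over that from 23 to 24 Mb was 3.98-fold in replicate 1 and 5.44-fold in replicate 2, for windows chosen as highest and lowest.

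**Figure D5:**
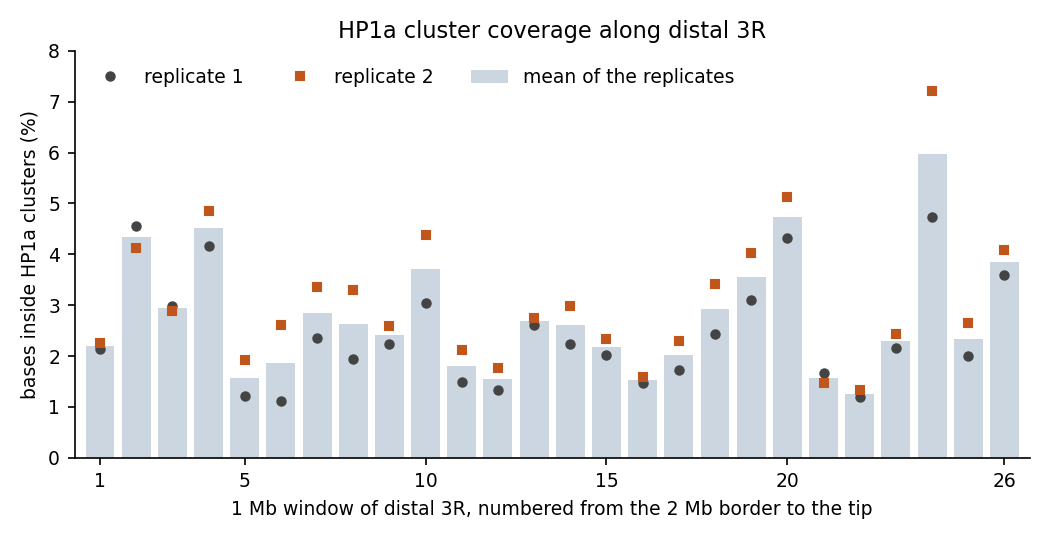
Percent of bases inside HP1a clusters (vertical axis) in 26 windows of 1 Mb along distal 3R, numbered from the 2 Mb border to the tip (horizontal axis). Circles are replicate 1, squares replicate 2 and bars their mean. Window 24 stands highest at 4.73% and 7.21%, and window 22 has the lowest mean, from 1.19% and 1.33%.

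No steady decline with distance from the centromere was seen in coverage beyond 2 Mb. In spans of 5 Mb from 2 Mb outward, replicate 1 covered 3.01%, 2.14%, 1.94%, 2.61% and, in the last span of 5.91 Mb, 2.54%. Replicate 2 covered 3.21%, 3.24%, 2.39%, 3.29% and 3.18% of the same spans. The span from 12 to 17 Mb was the lowest in both replicates, and held 93 members, against 142 from 2 to 7 Mb and 137 from 17 to 22 Mb. Members of high score that both replicates met were more frequent nearer the centromere. Of the 23 scored at 1 or above, 15 lay between 2 and 12 Mb, with 9 from 2 to 7 Mb and 6 from 7 to 12 Mb. The 3 outer spans held 2, 3 and 3. Members met by both at any score numbered 51, 35, 31, 36 and 47 in these spans, from 2 Mb outward. Of the 19 members scored at 1 or above that neither replicate met, 7 lay at or below 12 Mb.

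Neighbouring members were chained into groups where 10 kb or less lay between them. The 608 members formed 330 groups, of which 197 were single members and 16 held 5 members or more. The members in these 16 groups numbered 128. The share met by both replicates was 33.3% of 411 members with a neighbour and 32.0% of the 197 single members, so having a neighbour did not go with replicate support.

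The group with most members held 19 from 25028352 to 25136110 (108 kb), 55.3 kb of which lay inside members. Replicate 1 covered 18.5% of this stretch and replicate 2 covered 23.5%, and both met 7 of the 19 while neither met 8. Scores were 0.36 to 0.73. The second held 13 members from 21093570 to 21133554 (40.0 kb), covered to 39.6% in replicate 1 and 39.5% in replicate 2. A group of 12 ran from 25978294 to 26026880 (48.6 kb), with 14.0% inside clusters of replicate 1 and 34.5% inside those of replicate 2. The fourth held 9 from 27504944 to 27560554 (55.6 kb), covered to 27.2% and 38.0% in replicates 1 and 2. The fifth, of 8 members from 3608896 to 3634298 (25.4 kb), was covered most densely of the 5, to 47.5% in replicate 1 and 42.1% in replicate 2. An equal number of members lay in a looser group from 4841300 to 4892106, covered to 18.5% and 22.2%. In these groups the highest score was 0.75 or less, so the groups with most members and the highest-scored islands lay apart.

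Between members the median gap was 13517 bp, and 69 gaps exceeded 100 kb and together took up 13.8 Mb, or 53.3% of distal 3R. The longest stretch without a member ran from 23109047 to 23692481 (583 kb), and 0 replicate clusters lay wholly inside it.

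The members nearest the 2 ends of the region were unlike, but they do not rank the ends by coverage. By 1 Mb window the tip was the more covered end. The window from 2 to 3 Mb had 2.13% (replicate 1) and 2.27% (replicate 2) of its bases in clusters. For the window from 27 Mb to the tip these shares were 3.59% and 4.09%. The first members beyond the 2 Mb border, from 2000610 to 2004832 (4223 bp, score 1.21) and from 2005570 to 2008292 (2723 bp, score 1.45), were covered to 74.4% and 81.7% in replicate 1 and to 94.4% and 82.3% in replicate 2. The last clusters before the border, from 1672762 to 1674268 (score 0.19) and from 1851866 to 1853154 (score 0.35), were met by replicate 2 alone and by neither replicate. At the tip, the outermost 100 kb held 2 members. Of the bases in this stretch, 2.16% lay inside clusters of replicate 1 and 0% inside clusters of replicate 2. The member from 27808634 to 27809660 was met by neither, and that from 27876976 to 27879050 (2075 bp, score 0.39) lay fully inside a replicate 1 cluster and outside all of replicate 2. The last base of a member lay 26003 bp from the end of the arm sequence at 27905053.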

How the data were processed

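ChIP-seq of HP1a gave 1 region list per ChIP replicate and a combined list. Bowtie 0.12.7 is named in the submitters' processing notes, and per the file headers coordinates are on FlyBase r5. For the caller, its threshold and the way of combining replicates, no tool or setting was given in the sources used here. The authors deposited a score for each cluster, on a scale that is not stated, and 2 regions named as depleted, on other arms, were left out. Any filter or length limit of the caller, neither of which is stated, would set which short clusters can appear. Counts of short members would then depend on it.

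Arm lengths were taken from the headers, and coverage, overlap, groups and gaps were computed with Python 3.11.15, numpy 2.4.6 and pandas 2.3.3, and tests with scipy 1.17.1. The functions were checked on simulated lists. Named regions were taken by rule: the 10 longest and 5 highest-scored members at least 50% covered in both replicates, the 5 highest-scored of all, the 5 largest groups, the extreme windows, the ends and the 5 longest unmatched clusters of each replicate. The members and this rule were chosen with earlier results of these data known. Whether separate cages were used for each replicate is not labelled, so their spread may be technical. Genes and sequences were not analysed, since the gene table at hand is on release 6. Arms were compared as separate lists and, in addition, paired by library, since each library covers every arm. Only 2L, 3L and X were used as other arms.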

Additional observations from a re-analysis of the deposited data

How the results depend on the processing

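Of 68 alternatives, 54 left their value within the limits set for it, 14 moved it and 0 reversed a direction. Some of the 54 could not have moved, so the tally overstates stability. Merging clusters under 1000 bp apart cannot change groups chained at 10 kb. A length limit at the shortest replicate cluster, 1301 bp, cannot drop members met by both, which were 1495 bp or longer. With 2 replicates, each value always lies within 1 SD of their mean, so coverage in either replicate alone could not move. The limits were 1 SD of the replicates for coverage and shared bases, 1.5 times for counts and a 95% interval for medians and rho. Medians and rho were taken over regions of the same 2 libraries, so their intervals do not measure a spread between libraries. A filter that kept clusters scored no lower than their list's median moved most values. Coverage of distal 3R became 0.278%, members met by both 7, members met by neither 94, median length 3101 bp, median score 0.87, groups 110, the most covered window 1.03% and the Jaccard index 0.30. The list medians, 1.35 and 1.09 in replicates 1 and 2, lie above the distal 3R medians of 0.69 and 0.67, so this filter falls mostly on such clusters by construction. Among members at least as long as the shortest replicate cluster, 115 were met by neither in place of 240, and the median length was 2133 bp. Members met by both alone had a median length of 2921 bp and a median score of 0.59, in 156 groups. With windows of 2 Mb the most covered held 4.14%. Mean coverage of 3R stayed below that of 2L, 3L and X in every alternative run. These were borders at 1 and 3 Mb, merging, the score filter and each replicate alone, which gave 2.45% to 3.07% on 3R. The arm was picked with its coverage known to be the lowest in these lists, so the reruns add no support to that order. Under the score filter the single values of 3R (0.148% and 0.408%) and 3L (0.305% and 0.495%) overlapped, with a mean difference of -0.12 points (adjusted exact permutation p = 0.667). Pairing the arms by library, a replicate block chosen after seeing the data, gave the same mean differences (-0.95, -0.71 and -6.13 points), as it must by arithmetic. Depth is unknown, so a member missed by a replicate is not shown to be unbound.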

Other observations

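All 608 starts and all 608 ends of combined-set members on distal 3R were even numbers. In the replicate lists 141 of 263 starts (53.6%) in replicate 1 and 169 of 342 (49.4%) in replicate 2 were even. The combined set was therefore placed on another grid of positions than the replicate lists.

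Of the 608 members, 158 had a score that recurred, to 6 decimals, in another combined-set cluster. These were 103 of the 240 members met by neither replicate and 18 of the 200 met by both. The most frequent such value, 0.51, was carried by 35 clusters of the combined set, 3 of them on distal 3R.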
